A study of Mus musculus with 2 samples.

Results

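The 10 genes described here are regulators of the unfolded protein response and of the integrated stress response: *Ern1*, *Eif2ak3*, *Atf6*, *Xbp1*, *Atf4*, *Atf3*, *Ddit3*, *Trib3*, *Nupr1* and *Ppp1r15a*. They were taken by name, as every probe set whose annotation gives 1 of these genes and no other, matched through the Entrez ID. All 10 were found, among 18193 genes on the arrays, with 26 probe sets between them. A probe set is a group of short DNA probes that reads 1 stretch of an mRNA, mostly near its 3′ end.

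Gene expression was measured in primary mouse neonatal ventricular cardiomyocytes (mNVCM) of strain C57BL6/J, isolated at postnatal day 2, with 1 Affymetrix array per condition. Both cultures spent 1 h in medium with 0.5% FBS and were then exposed to 1 μM doxorubicin (Dox), an anthracycline that poisons type II topoisomerases and so damages DNA. The culture called hAFS-CM + Dox had first been incubated for 3 h with hAFS-CM, the conditioned medium of human amniotic fluid-derived stem cells, which the study's methods say was collected under hypoxia from cells of several pooled donors. The Dox culture had no conditioned medium. The study's methods put Dox exposure at 6 h before expression profiling, whereas the labels of the arrays give 6 h for hAFS-CM + Dox and 21 h for Dox. If the labels hold, the pre-incubation and the hours of Dox cannot be told apart. There was no culture without Dox, so no value here shows what Dox itself did to these genes.

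With 1 array per condition there was no replicate, no standard error and no test, and each value describes these 2 arrays. Values are on the log2 scale, and a log2 ratio is the hAFS-CM + Dox value minus the Dox value. The median of all values was 5.10 and their 25th percentile 3.80, and a probe set below the latter on both arrays is not shown to be above background. Each gene is represented by its probe set with the highest mean. Within a gene, the log2 ratios of its probe sets scattered with an SD of 0.20, pooled over the 5166 genes with several probe sets at or above the median. This probe set SD serves as a yardstick for size and holds no variation between cultures. Cell type markers bore out the label, since the cardiomyocyte markers lay between 10.05 and 15.05 for Dox and between 9.78 and 14.99 for hAFS-CM + Dox. The cultures also held transcripts used as markers of other heart cells. Given here is each list's marker of highest mean, for hAFS-CM + Dox and Dox. These were *Dcn* for fibroblasts (12.05 and 11.64), *Acta2* for mural cells (14.40 on each array) and *Lyz2* for macrophages (11.80 and 11.91). For endothelium it was *Emcn* (10.17 and 10.12) and for the epicardium *Krt19* (9.07 and 9.29). Below the median on both arrays lay *Myh11* of the mural list (4.97 and 4.89), *Itgam* of the macrophage list (4.21 and 4.80) and *Vwf* of the endothelial list (5.04 and 4.79). At or above it on 1 array or both were 6 of 7 mural, 9 of 10 macrophage and 7 of 8 endothelial markers.

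Proteins that fold poorly in the endoplasmic reticulum (ER) are sensed by 3 membrane proteins, IRE1 (gene *Ern1*), PERK (*Eif2ak3*) and ATF6. IRE1 splices the *Xbp1* mRNA so that it codes for an active transcription factor, ATF6 is cut free in the Golgi, and PERK phosphorylates the translation factor eIF2α. Phosphorylated eIF2α slows protein synthesis in general while the *Atf4* mRNA is translated better, and other kinases that sense amino acid shortage, haem shortage or viral RNA feed into the same step, the integrated stress response. ATF4 then raises the transcription of *Atf3*, *Ddit3* (CHOP), *Trib3*, *Nupr1* and enzymes of amino acid supply, and *Ppp1r15a* (GADD34) closes the loop by directing a phosphatase to eIF2α. In the heart, both responses are engaged by ischaemia, pressure overload and anthracyclines. Much of this control is exerted on splicing, cleavage, phosphorylation and translation. The arrays read only the total mRNA.

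ATF4 binds, with a partner of the C/EBP family, to a short element called CARE. Its core, written here as TGATGNAA and searched on both strands, lies in the RefSeq promoter window (250 bases before to 50 after the transcription start, GRCm38.p6) of *Nupr1*, *Atf3* and *Trib3*, which are 3 of the 9 regulators with a window in the table used. *Atf6* had none there. Here and for the elements below, a gene was counted when any of its windows held the letters, whereas the percentages of windows are not shares of genes. The core occurred in 3.97% of all 32851 windows. These stretches are shown because they hold the letters of this core, and because the genes that hold it had unlike log2 ratios. Capitals mark the match, which in all of them runs on the strand opposite to the core as spelled above. The *Nupr1* stretch is chr7:126625547-126625606, the *Atf3* stretch chr1:191183410-191183469 and the *Trib3* stretch chr2:152344028-152344057, all on the minus strand. The last lies just after the start site.
Nupr1: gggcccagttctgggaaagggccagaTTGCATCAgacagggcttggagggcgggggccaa
Atf3: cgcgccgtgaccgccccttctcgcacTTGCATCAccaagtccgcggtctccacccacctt
Trib3: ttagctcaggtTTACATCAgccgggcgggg

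In *Nupr1* and in *Atf3* the 8 letters were the same and stood at the same distance from the start, from base -110 to base -103. *Trib3* differed from them at the letter that the core leaves free. A match is a run of letters and not evidence of binding. *Ppp1r15a* held no CARE core but held the palindrome TGACGTCA, the site of CREB and ATF proteins, found in 1.79% of windows and ending 5 bases before the start. Its stretch is chr7:45526269-45526306 on the minus strand.
Ppp1r15a: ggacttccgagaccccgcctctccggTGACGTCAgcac

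None of the 10 regulators was 2-fold or more higher or lower on the hAFS-CM + Dox array, where 0.506% of all genes were 2-fold higher and 0.214% were 2-fold lower. At 1.5-fold, 1 regulator was higher, *Nupr1*, and none was lower, against 2.32% and 1.52% of all genes. Past the probe set SD, 3 regulators were higher (*Nupr1*, *Ern1* and *Xbp1*) and none was lower, against 18.5% and 16.3% of all genes. The other 7 lay within that SD. These calls depended on the probe set taken for a gene. With the mean of a gene's probe sets, 1 regulator was higher (*Nupr1*) and 1 lower (*Atf4*) past the SD, against 15.0% and 13.6% of all genes. At the probe set with the largest change, 4 were higher (*Nupr1*, *Xbp1*, *Eif2ak3* and *Atf6*) and 2 lower (*Atf4* and *Ern1*), against 25.4% and 23.9%. For *Eif2ak3* that probe set read 3.85 for hAFS-CM + Dox and 3.57 for Dox, the latter under the 25th percentile of all values, so its call carries little weight. The median log2 ratio of the 10 was 0.12, beside 0.0058 for all genes, but 0.022 with the mean of the probe sets and 0.011 at the one with the largest change, beside 0.0021 and 0.0031. At the probe set of highest mean, 6 of the 10 were above 0, as were 51.2% of all genes. The log2 ratios ran from -0.16 for *Atf4* to 0.63 for *Nupr1*. With so few genes and 1 array per condition, these counts describe the arrays and do not set the regulators apart from other genes. Every regulator was at or above the median of all values on 1 array or both, as were 12238 of all 18193 genes. The shares of all genes therefore include genes of lower signal.

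**Figure D1:**
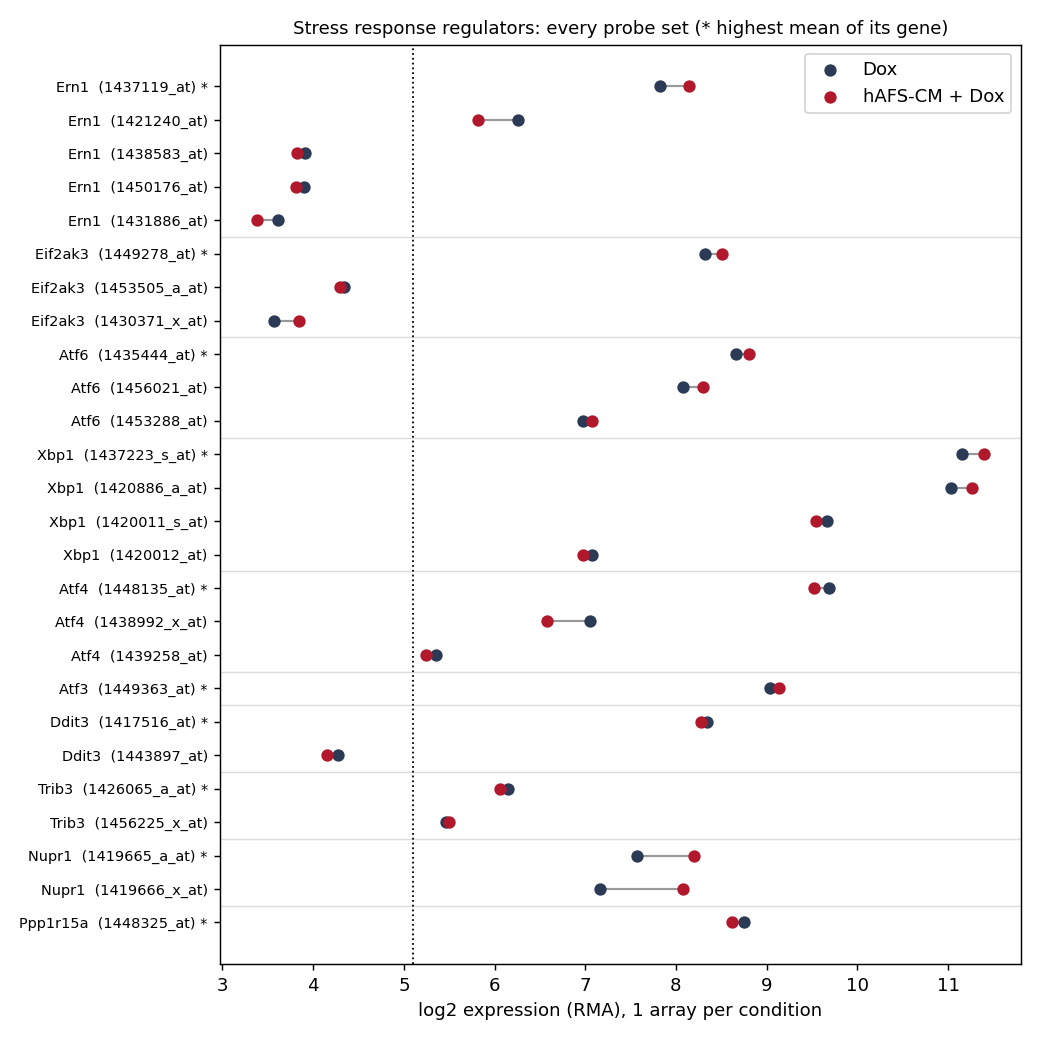
Log2 expression (RMA) of the 26 probe sets of the 10 regulators for Dox (dark points) and hAFS-CM + Dox (red points), 1 array each, with the probe set used for each gene marked by an asterisk. A dotted line marks 5.10, the median over all values. The pair is farthest apart in the 2 probe sets of *Nupr1*, and for *Ern1* the red point lies to the right in 1 probe set and to the left in the other 4.

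*Nupr1* codes for a small chromatin-associated stress protein that ATF4 induces and that acts in cell survival and autophagy. Its log2 value was 8.20 for hAFS-CM + Dox and 7.57 for Dox at the probe set used, so that it was 1.55-fold higher (log2 ratio 0.63). The other probe set, of the type _x_at, read 8.08 and 7.17 (log2 ratio 0.91). Both readings were higher on the hAFS-CM + Dox array and past the probe set SD. *Nupr1* was the only regulator with several probe sets for which each one passed that SD. The annotation assigns both to the same transcript, and the _x_at type can bind other transcripts too, so they are not independent readings. Of all genes, 1.89% had a log2 ratio as high as or higher than that of *Nupr1*, which ranked 343 of 18193 from the top.

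The sensors showed small differences. *Ern1* had log2 values of 8.14 for hAFS-CM + Dox and 7.83 for Dox (log2 ratio 0.32). Its next probe set pointed the other way, with 5.81 against 6.25, which is a ratio of -0.44. The other 3 probe sets of *Ern1* read values of 3.92 or less. One was below the 25th percentile on both arrays and so is not shown to be above background, and the rest, just above that percentile, had log2 ratios of -0.091 and -0.088. The probe sets of *Ern1* therefore did not give 1 direction, and their mean log2 ratio was -0.11, or -0.075 without the one below the percentile. *Eif2ak3* had 8.50 and 8.32, a log2 ratio of 0.18, and its other 2 probe sets (0.28 and -0.044) read values of 4.34 or less. All 3 probe sets of *Atf6* were slightly higher with hAFS-CM + Dox. They read 8.80 against 8.66, 8.30 against 8.08, and 7.07 against 6.97, which are log2 ratios of 0.14, 0.22 and 0.10. The middle one of these passed the probe set SD and the others did not.

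Among the transcription factors, *Xbp1* had the highest log2 ratio. It read 11.40 for hAFS-CM + Dox and 11.15 for Dox at the probe set used, and 11.27 and 11.04 at the next, log2 ratios of 0.25 and 0.23. Its other 2 probe sets read 9.55 against 9.67 and 6.98 against 7.07, log2 ratios of -0.12 and -0.098. The pair of *Xbp1* probe sets with the stronger signal was thus higher and the weaker pair lower on the hAFS-CM + Dox array. These probe sets were not matched to the spliced or the unspliced form, so the activity of IRE1 on *Xbp1* was not measured.

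*Atf4* had log2 values of 9.52 for hAFS-CM + Dox and 9.68 for Dox (log2 ratio -0.16), the lowest of the 10 genes. Its other probe sets read 6.58 against 7.05 and 5.25 against 5.35, log2 ratios of -0.47 and -0.10. All 3 were lower with hAFS-CM + Dox, and the one with the largest difference is of the _x_at type. *Atf3*, a repressor and activator induced early by many stresses, read 9.14 and 9.03 from its only probe set, a log2 ratio of 0.11. *Ddit3*, whose product CHOP promotes apoptosis when ER stress persists, read 8.28 and 8.35, a log2 ratio of -0.068. Its other probe set had 4.15 and 4.28, a log2 ratio of -0.13. The differences of *Atf3* and *Ddit3* were below the probe set SD at every probe set.

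The feedback genes other than *Nupr1* differed little. *Trib3*, a pseudokinase that restrains Akt and ATF4, had log2 values of 6.07 for hAFS-CM + Dox and 6.15 for Dox (log2 ratio -0.083). At its other probe set the values were 5.50 and 5.47, a log2 ratio of 0.038. *Ppp1r15a* read 8.62 and 8.75 from its only probe set, a log2 ratio of -0.13. *Nupr1*, *Atf3* and *Trib3*, which share the CARE core shown above, therefore had log2 ratios of 0.63, 0.11 and -0.083.

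**Figure D2:**
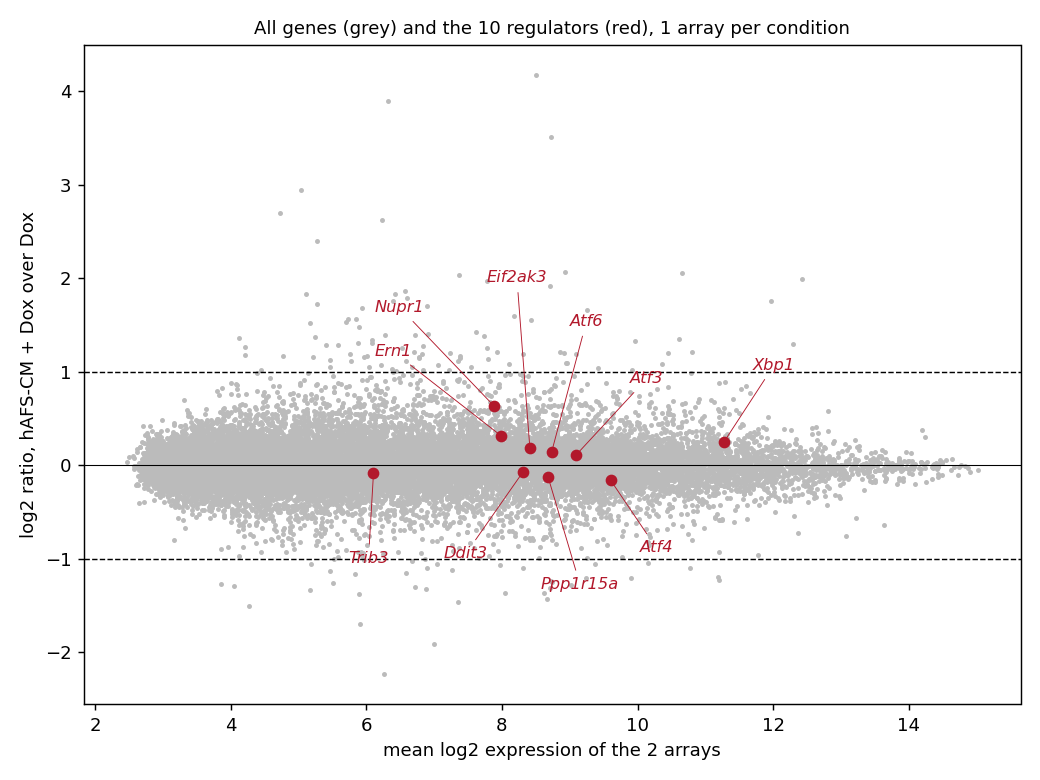
Log2 ratio (hAFS-CM + Dox over Dox) against the mean log2 expression of the 2 arrays for all 18193 genes (grey) and the 10 regulators (red), each at its probe set with the highest mean; the dashed lines mark 2-fold. All 10 red points lie between the lines, from -0.16 for *Atf4* to 0.63 for *Nupr1*, within the range of the grey points at the same expression.

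Of the 26 probe sets of the regulators, 12 were above 0 and 14 below, and 16 lay within the probe set SD. Of the 8 genes with several probe sets, 4 had probe sets of both signs (*Ern1*, *Eif2ak3*, *Xbp1* and *Trib3*) and 4 had the same sign throughout (*Atf6* and *Nupr1* higher, *Atf4* and *Ddit3* lower). In 6 probe sets both arrays lay below the median of all values.

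Other genes of the same pathways were described from lists of 110 genes, of which 106 were measured. *Atf5*, *Cebpb* and *Cebpg* stand in more than 1 list, so the lists are not separate observations, and each gene is counted once here. The median log2 ratio of the 106 genes was 0.060. At or above the median of all values on 1 array or both were 103 of them, against 12238 of all 18193 genes. Shares of all genes thus include more genes of low signal than these lists do. Past the probe set SD 19 of the 106 were higher and 15 lower, which is 17.9% and 14.2% of them, near the 18.5% and 16.3% of all genes. At 2-fold or more 1 was higher and none was lower, against 0.506% and 0.214% of all genes. That gene was *Creb3l1*, which codes for OASIS, an ER membrane transcription factor cut in the Golgi like ATF6 and known for its part in collagen secretion. *Creb3l1* read 8.07 for hAFS-CM + Dox and 7.02 for Dox at its only probe set (log2 ratio 1.06), rank 81 from the top. Its paralogue *Creb3l2* had a log2 ratio of 0.36, with 9.66 and 9.31. *Mbtps1*, the protease that makes the earlier of the cuts of ATF6, had -0.21, although 1 of its 3 probe sets had 0.35. In all, 8 of 9 genes of this list of transducers and proteases were above 0, as were 51.2% of all genes, with a median of 0.12. The 8 include *Creb3l4* (log2 ratio 0.29), which read 3.66 for hAFS-CM + Dox and 3.37 for Dox. Both values are under the 25th percentile, so the sign of *Creb3l4* carries little weight. *Ern2*, whose log2 ratio is the list's median, read 4.18 and 4.07, below the median of all values on both arrays.

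The lists of genes that carry out the unfolded protein response had median log2 ratios near 0 at the probe sets used. Of 18 ER chaperones and folding enzymes, 3 were higher and 1 was lower past the probe set SD. That is 16.7% and 5.56% of the list, beside 18.5% and 16.3% of all genes, and the median was 0.032. *Hspa5* (BiP), the chaperone that holds the sensors inactive and the usual readout of ER stress, is given here beyond the rule for named genes because it carries the element described next. It read 12.87 and 12.79, a log2 ratio of 0.078. Of the 3 probe sets of *Hspa5*, 1 was above 0 and 2 were below, the lowest at -0.047. *Creld2* had the largest log2 ratio, 0.34 (9.61 against 9.27), followed by *Ero1b*, an oxidase that supplies disulfide bonds, with 0.31. *Sil1*, a nucleotide exchange factor of BiP, had -0.28. Of 12 genes of ER-associated degradation, 2 were higher and 2 lower by that SD, with a median of 0.0078. Each count is 16.7% of the list, beside 18.5% higher and 16.3% lower of all genes. *Derl3* had -0.38 (6.53 against 6.90), *Edem1* 0.26 and *Edem2* -0.25, with 0.026 at the other probe set of *Edem2*. Some genes of both lists differed more at other probe sets. Over all their probe sets, *Sel1l* ran from -0.62 to 0.21, *Dnajc3* from -0.19 to 0.23 and *Hyou1* from 0.20 to 0.41.

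ATF6 acts through the ER stress element (ERSE), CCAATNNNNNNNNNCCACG, which was found on either strand in 0.119% of promoter windows. It lay in none of the 9 regulators with a window and in 10 of the 87 other pathway genes with one, among them *Hspa5*, *Hsp90b1*, *Calr*, *Pdia6* and *Creld2*. The *Hspa5* stretch, chr2:34771999-34772069 on the plus strand, is shown as the model case, with the element in capitals.
Hspa5: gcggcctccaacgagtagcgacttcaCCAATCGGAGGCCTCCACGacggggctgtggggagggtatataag

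The log2 ratios of these 10 genes ran from -0.38 for *Derl3* to 0.34 for *Creld2*.

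Targets of the integrated stress response were described next. Of 14 measured ATF4 targets in amino acid supply, 1 was higher and 4 lower past the probe set SD, and the median was -0.025. That is 7.14% and 28.6% of the list, beside 18.5% and 16.3% of all genes. *Mthfd2*, 1 of the 4 lower, only just passed that SD, with -0.21. *Psat1*, of serine synthesis, had -0.35 (11.14 against 11.49) and -0.33 at its other probe set. *Slc7a3*, a carrier of cationic amino acids, also had -0.33. *Slc7a11*, the cystine carrier that supplies glutathione synthesis, had a log2 ratio of 0.69, from 5.12 with hAFS-CM + Dox and 4.43 for Dox. The Dox value is below the median of all values, so *Slc7a11* met the signal criterion for naming a gene through the hAFS-CM + Dox array alone. Its other probe set had 0.37 on values near the 25th percentile, 3.92 and 3.54. None of the 12 aminoacyl-tRNA synthetases, which charge tRNAs and are largely induced by ATF4, passed the probe set SD at the probe set used. Of all genes, 18.5% were higher and 16.3% lower past it. The log2 ratios of the 12 ran from -0.14 for *Sars* to 0.17 for *Tars*, with *Cars* at 0.15. At other probe sets, *Eprs* went as low as -0.31 and *Wars* as low as -0.35, past that SD.

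Of 12 measured ATF4 and CHOP stress targets, 2 were higher and 4 lower by that SD, with a median of -0.023. That is 16.7% and 33.3% of the list, beside 18.5% and 16.3% of all genes. *Vldlr*, a lipoprotein receptor, read 9.95 for hAFS-CM + Dox and 10.63 for Dox (log2 ratio -0.69). All 6 of its probe sets were lower, from -0.94 to -0.42. *Tnfrsf10b*, the death receptor that CHOP induces, had 0.40, and *Sesn2* had -0.30 (0.12 at its other probe set). *Vldlr* and *Slc7a11* are among the 12 of 87 other pathway genes with a window that hold the CARE core in it. The stretches are shown because these 2 genes had the lowest and the highest log2 ratio among those 12, at chr19:27216794-27216853 on the plus strand and chr3:50443627-50443686 on the minus strand.
Vldlr: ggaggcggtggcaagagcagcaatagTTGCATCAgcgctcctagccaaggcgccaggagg
Slc7a11: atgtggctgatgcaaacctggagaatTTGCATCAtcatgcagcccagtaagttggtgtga

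The 8 letters in capitals are those of *Nupr1* and *Atf3*. *Slc7a11* holds the core a second time, on the strand spelled above, a few bases before the capitals.

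**Figure D3:**
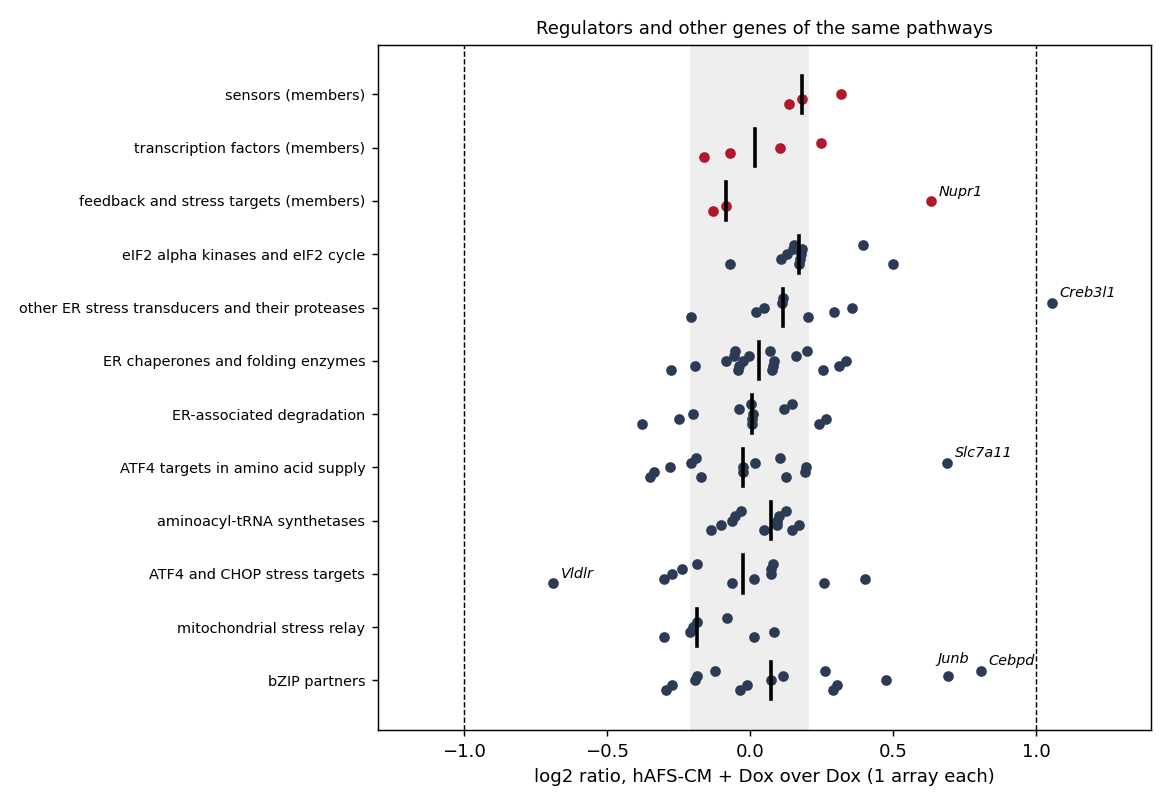
Log2 ratio (hAFS-CM + Dox over Dox, 1 array each) of the 10 regulators in their 3 roles (red) and of the other pathway genes by list (dark), 1 point per gene, with a black bar at each median. The grey band is the probe set SD, 0.20 to each side, and the dashed lines mark 2-fold; most points lie in or near the band, *Nupr1* is the red point farthest from it and *Creb3l1* the single point beyond 2-fold.

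Of 11 measured genes of the eIF2 kinases and the eIF2 cycle, 10 had a log2 ratio above 0, as did 51.2% of all genes, with a median of 0.17. This median is the value of *Eif2ak2*, which had 1 of its 3 probe sets above 0 and 2 below. Past the probe set SD 2 of the 11 genes were higher, which is 18.2% of the list, near the 18.5% of all genes. These were *Eif2ak4* (GCN2), the kinase that senses amino acid shortage, with 0.50 (5.61 against 5.11; -0.052 at its other probe set, of low signal), and *Eif2b3*, a subunit of the exchange factor that phosphorylated eIF2 blocks, with 0.39 (8.68 against 8.28). *Ppp1r15b*, the constitutive counterpart of *Ppp1r15a*, had 0.18 and 0.37 at its 2 probe sets. The 7 genes of the mitochondrial stress relay had the lowest median of the pathway lists, -0.19. This is the value of *Atf5*, which has 1 probe set and is also in the list of ATF4 and CHOP stress targets and in the one described next. In the relay list 2 genes were lower past that SD, which is 28.6%, beside 16.3% of all genes. *Dele1*, which carries the mitochondrial signal to the eIF2 kinase HRI, had -0.30, and the proteases *Clpp* and *Lonp1* had -0.21 and -0.20. *Clpp* only just passed that SD, and its other probe set, with -0.16, did not.

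Basic leucine zipper factors bind DNA as pairs, and relatives of ATF4, ATF3 and CHOP or their partners were measured as well. Of 15 such genes, 6 were higher and 2 lower past the probe set SD, which is 40% and 13.3% of them beside 18.5% and 16.3% of all genes. At 1.5-fold 2 of them were higher, where 2.32% of all genes were. *Cebpd* read 9.57 for hAFS-CM + Dox and 8.76 for Dox (log2 ratio 0.81), and its other probe set had -0.10. *Junb*, a partner of ATF3, read 9.73 and 9.04, a log2 ratio of 0.69, and *Cebpa* 7.77 and 7.30, a log2 ratio of 0.48. The 2 lower genes were *Atf2* (-0.29) and *Cebpg* (-0.27), each below 0 at every probe set. Among the 6 higher, *Creb1* (0.30) had 4 of its 6 probe sets below 0. The median over the 15 genes was 0.072.

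Markers of the cell types in such cultures did not read alike on the arrays, and their part in the values above was not tested. All 10 cardiomyocyte markers had a log2 ratio below 0 (median -0.13), where 51.2% of all genes were above 0. Past the probe set SD 3 of them were lower, which is 30% of the list, beside 16.3% of all genes. Of 10 macrophage and leukocyte markers 7 were above 0 (median 0.061, from -0.58 to 0.80), of 7 mural markers 6 (median 0.20), of 8 endothelial markers 6 (median 0.068), of 8 fibroblast markers 3 (median -0.078, from -1.03 to 0.79) and of 6 epicardial markers 2 (median -0.26). No marker of these lists was under the 25th percentile on both arrays. In bulk RNA, fewer cells of a type and less RNA per cell cannot be told apart.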

How the data were processed

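Total RNA of 2 cultures was hybridised to 1 Affymetrix mouse array each. The authors processed the arrays with RMA and quantile normalization and deposited 1 log2 value for each of 45101 probe sets, which were used as they stand. The submitters' processing notes name RMA; its version and the probe set definition were not given in the sources used here. The log2 scale was read off the range of the values, 2.37 to 15.05. After sorting, the largest difference between the columns was 0.073. Genes came from the platform annotation, updated through the Entrez ID with RefSeq genes of GRCm38.p6, which matched 34741 of 34945 probe sets with 1 gene.

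From these values the log2 ratio was computed per probe set and, per gene, at its probe set of highest mean signal. Genes were counted at 2-fold, the threshold in the methods, at 1.5-fold, and beyond the probe set SD described above. With 1 array per condition no test was made, and precision is limited by the number of arrays. The members and gene lists were chosen with earlier results of these data known, and the promoter motifs after the values were seen. Genes named from the other lists are the 3 with the largest log2 ratio in size among those at or above the median signal on the higher array, and for markers the gene with the highest mean. *Hspa5* was added for its promoter. A few other genes were added to show low signal, other probe sets, values near the probe set SD, the lower genes of a list or a place in several lists. Genes for which no probe set was named alone, such as *Eif2s1*, *Pycr1* and *Gdf15*, were not analysed here. Promoter sequences are RefSeq's on GRCm38.p6. The alternatives were other thresholds (1.5-fold and 3-fold), filters on low signal, the mean over probe sets or the probe set of largest change, leaving out probe sets of the types _s_at and _x_at, centring, and lowess correction on mean signal (span 0.3). The counting was tested on simulated data. Scripts ran in Python 3.11.15 with pandas 2.3.3, numpy 2.4.6, matplotlib 3.10.9 and, for lowess, statsmodels 0.14.6.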

Additional observations from a re-analysis of the deposited data

How the results depend on the processing

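No regulator reached 2-fold in either direction under any alternative that kept that threshold, nor at 3-fold, and at 1.5-fold 1 was higher and 0 were lower. The median log2 ratio of the regulators ranged from 0.011 to 0.12 and that of the other pathway genes from 0.031 to 0.081. Of 50 log2 ratios of single regulators under the alternatives, 46 stayed within the probe set SD of the reported value. The other 4 came from the choice of probe set. *Ern1* had -0.11 with the mean of its probe sets and -0.44 at the one with the largest change, *Atf4* had -0.47 and *Nupr1* 0.91 at that probe set. In counts past the probe set SD, chosen after seeing the data, 3 regulators were higher and 0 lower as reported, 1 and 1 with the mean of the probe sets, and 4 and 2 at the probe set with the largest change, and the counts were 3 and 0 under the other 3 alternatives. The values of *Nupr1* ranged from 0.61 to 0.91. Centring shifted all genes by 0.0058 and lowess correction by at most 0.037. No paired analysis was possible because there was 1 array per condition, and for the same reason no array could be left out.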

Other observations

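The promoter elements of these pathways were also followed over all measured genes, as a description. The 465 measured genes with a CARE core in a promoter window had a median log2 ratio of -0.0052, with 16.1% higher and 15.9% lower past the probe set SD. For the palindrome TGACGTCA, the 422 measured genes had a median of 0.0040, with 18.2% higher and 13.5% lower. The 143 measured genes with TGACGTGG, the element bound by XBP1 and ATF6 and searched on both strands, had a median of 0.069, with 21.7% higher and 15.4% lower. For ERSE, the 20 measured genes had a median of 0.065, with 30% higher and 20% lower, which is 6 and 4 genes. The 10 pathway genes with ERSE described above are among these 20. Only *Ube2j1*, a ubiquitin-conjugating enzyme of ER-associated degradation, held TGACGTGG among the 87 other pathway genes with a window, and its log2 ratio was 0.15.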
